A study of Drosophila melanogaster with 8 samples.

Results

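All 5 libraries in which FBXO11 was knocked down were set as one group against the 3 control libraries, and the genes described are those whose 5 knockdown libraries all lay above, or all lay below, the 3 controls. The comparison takes in 8 of the 8 libraries of the series, which were made from heads of adult Drosophila melanogaster, and 2354 of 10865 tested genes met that rule. It asks which transcripts move the same way in every library with reduced FBXO11, whichever knockdown line the library came from. The knockdown group joins 3 libraries titled RNA1 (genotype entry FBXO11 KD1) with 2 titled RNA2 (genotype entries KD2 for one and KD3 for the other). The controls carry the entry FBXO11 WT. Every library carries the same batch number, and all titles, the controls' included, speak of a neuronal knockdown. The labels do not name the driver, the hairpin construct, or the age, sex and genetic background of the flies. Controls and knockdowns share no genotype entry, so in every value below a difference of background and the knockdown cannot be told apart. Whether replicates were separate pools of flies is likewise not stated, and a p-value here reflects the spread of these libraries alone, which could be of technical origin.

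FBXO11 is an F-box protein. F-box proteins are the subunits of SCF ubiquitin ligases that bind a substrate, while a cullin scaffold and a RING protein bring in the ubiquitin-charged enzyme; the ubiquitin chain then directs the substrate to the 26S proteasome. A change in a transcript after loss of such a ligase can therefore be many steps away from the ligase itself. The fly head holds the brain, the compound eyes, the antennae and mouthparts, and with them fat body, hemocytes, muscle, glia and epidermis. In bulk RNA from such a mixture, fewer cells of a type and less RNA per cell cannot be told apart.

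Total counts were 38933684 to 41589222 in the controls and 32434805 to 36809556 in the knockdowns. Along the first principal component (42.9% of the variance) the controls lay between -35.9 and -26.9 and the knockdown libraries between 9.66 and 26.6. The second held 17.3% and set RNA1 replicate 1 (30.5) and RNA2 replicate 1 (-30.7) far from each other, with the other knockdown libraries between -0.27 and 3.90. The head label was borne out by its markers: the sum over 5 photoreceptor genes (ninaE, Arr2, trp, norpA and inaD) was 45330 to 50850 CPM in control and 45660 to 59510 in knockdown, and that over 5 neuronal genes was 5046 to 5585 and 4386 to 5452. CPM are read counts relative to library size, scaled by TMM. Markers of other cell types are given beside the genes they move with.

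FBXO11 itself (FBgn0037760; BDGP6 3R:9803486-9809368, minus strand) was lower in every knockdown library, which checks the labels. It stood at 108, 103 and 96.9 CPM in control replicates 1 to 3, at 39.7, 42.5 and 37.4 CPM in the RNA1 libraries and at 45.0 and 52.7 CPM in the RNA2 libraries. Groups did not overlap: the lowest control library lay a log2 distance of 0.88 above the highest knockdown library. The mean went from 103 ± 5.46 CPM (SD, n = 3) to 43.5 ± 5.94 CPM (n = 5), or 42.3% of control, a log2 fold change of -1.24 ± 0.10 (SE; edgeR FDR 0.000133 over all tested genes).

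Of the 10865 tested genes, 1202 (11.1%) were higher in all 5 knockdown libraries than in all 3 controls and 1152 (10.6%) were lower. Together these were 21.7% of the tested genes. By the edgeR quasi-likelihood test, 516 genes were called higher (4.75%) and 582 lower (5.36%) at an FDR under 0.05, 10.1% in all. Both conditions held for 509 higher (4.68%) and 573 lower genes (5.27%), 9.96% in all, and a gene is said below to rise or fall only where both held. Most of these changes were modest. Among the 509 genes that rose, 217 had a log2 fold change under 0.5 and 155 one of at least 1, with a median of 0.61. Among the 573 that fell, 276 were under 0.5 in size and 116 at least 1, with a median of -0.52. The 23 genes that rose by at least 3 on the log2 scale compare with 7 that fell by as much. Scaling to library totals without a composition factor turned the split of 516 higher and 582 lower calls into 674 and 485, 58.2% higher in place of 47%, so the balance of directions depends on the scaling.

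**Figure D1:**
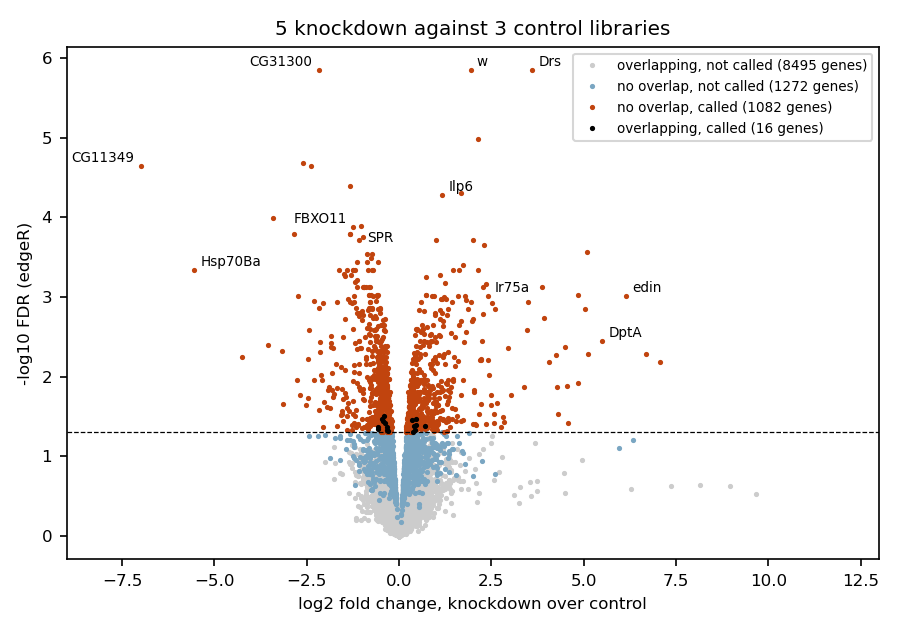
Log2 fold change of 5 knockdown over 3 control libraries (x axis) against the -log10 edgeR FDR (y axis; the dashed line is an FDR of 0.05) for each tested gene, coloured by whether the libraries of the groups overlapped and whether the gene was called. The 1082 genes called with no overlap form the upper arms; Drs, w and CG31300 have the lowest FDR.

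The overlap rule and the test picked different genes at their edges, and both read the same values. Without an FDR under 0.05, 693 higher and 579 lower genes met the overlap rule. In CG16953, for instance, all controls were at 215 to 219 CPM and all knockdowns at 206 to 209 CPM, a log2 fold change of -0.06 with an FDR of 0.467. MED6 had the highest FDR of all genes that met the rule (0.678), with 16.8 to 17.2 CPM in control and 17.3 to 17.9 CPM in knockdown. Both genes differ little between the groups. Others that met the rule without a call were widely scattered, such as Rpn3 and CG4757, described further on. In the other direction, 16 genes were called although libraries overlapped. RpS27A, a ribosomal protein fused to ubiquitin, was one of them: 550, 573 and 657 CPM in control, 787, 799 and 747 CPM in RNA1 and 792 and 655 CPM in RNA2 (log2 0.35, FDR 0.0356), with RNA2 replicate 2 just under control replicate 3. Its call was lost without control replicate 1 or 2, or any 1 RNA1 library (FDR 0.0514 to 0.164). Just inside the rule was Csgalnact, whose nearest libraries both read 34.2 CPM to the digits given here, and just outside it Pngl, where control replicate 3 and RNA1 replicate 2 both read 48.7 CPM.

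Among the 12 genes with the widest gap between the groups on the higher side, 9 belong to innate immunity. In the fly, bacteria and fungi are met by secreted peptides made in fat body and hemocytes under the Toll and Imd pathways. The gap is the log2 distance between the nearest libraries of the groups, with a prior count of 2. The widest was that of edin (3L:17494880-17495300), a secreted peptide known to be induced by infection, at 4.61. Its control libraries read 0.468, 0.440 and 0.627 CPM, its RNA1 libraries 29.1, 54.9 and 16.6 CPM and its RNA2 libraries 48.5 and 30.9 CPM. RNA1 replicate 3 was the lowest knockdown library and still far above the controls, and the fit gave log2 6.13 ± 0.56 (FDR 0.000975).

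IBIN, another small infection-induced gene (2R:17671068-17671295), read 0.182, 0.537 and 0.549 CPM in control, 31.8, 51.7 and 10.8 CPM in RNA1 and 64.3 and 61.3 CPM in RNA2 (log2 6.68 ± 0.87, FDR 0.00525; not called by limma-voom, at an adjusted p of 0.115). DptA, a diptericin active against Gram-negative bacteria (2R:18865765-18866260), read 3.67, 6.01 and 15 CPM in control, 326, 518 and 190 CPM in RNA1 and 501 and 333 CPM in RNA2. For both genes RNA1 replicate 3 was again the lowest of the 5. DptA rose by log2 5.51 ± 0.65 (FDR 0.00356), its neighbour DptB by 4.84 ± 0.42 (FDR 0.000941), drosocin (Dro) by 5.04 ± 0.49 (FDR 0.00142) and attacin C (AttC) by 4.5 ± 0.56 (FDR 0.00426). DptB and AttC overlap CG43109 and CG4744 on the other strand; since the strand setting of the counting is not given, their reads may include those of the partner.

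Drs, the antifungal drosomycin and a standard readout of Toll (3L:3369556-3369942), rose with less scatter than the other immune genes among the 12. It stood at 17.6, 22.7 and 19.3 CPM in control, 225, 277 and 190 CPM in RNA1 and 263 and 255 CPM in RNA2. The mean went from 19.9 ± 2.58 (n = 3) to 242 ± 34.7 CPM (n = 5), a log2 fold change of 3.6 ± 0.15 (FDR 1.4e-06). The cecropin CecA1 varied far more, from 1.44 to 2.49 CPM in control and from 17.6 CPM in RNA1 replicate 3 to 117 CPM in RNA1 replicate 2. Its rise of 4.86 ± 0.77 (FDR 0.0121) was lost when any 1 control was left out (FDR 0.0672, 0.0551 and 0.0558 without control replicates 1, 2 and 3), and its reads may be shared with the near copies CecA2, CecB and CecC. The remaining 3 of the 12 are CG43920 (log2 7.07 ± 0.97, FDR 0.00647; 0.128 by limma-voom), CG45045 (5.09 ± 0.36, FDR 0.000268) and lncRNA:CR45680 (3.87 ± 0.38, FDR 0.000746), for which no role is given here. In CG45045 the highest control library read 1.46 CPM and the lowest knockdown library 26 CPM.

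**Figure D2:**
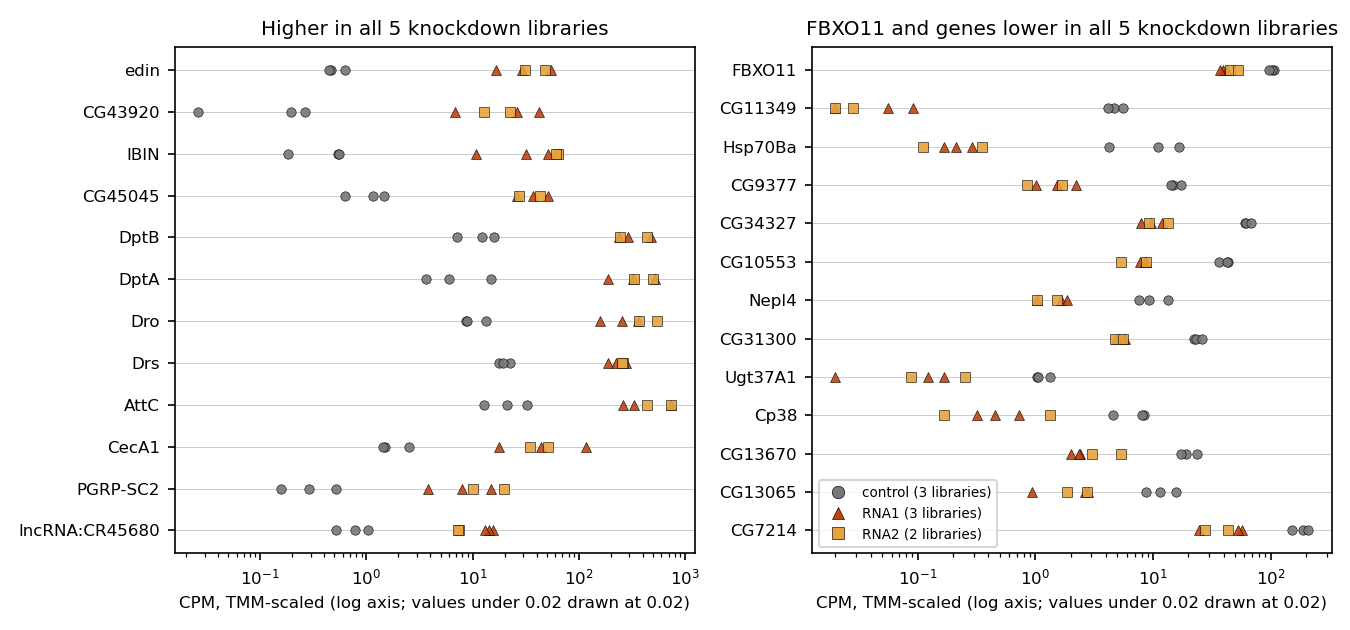
TMM-scaled CPM (log x axis; values under 0.02 are drawn at 0.02) in each of the 8 libraries for the 12 genes with the widest gap on the higher side (left) and for FBXO11 and the 12 with the widest gap on the lower side (right). Circles are control, triangles RNA1 and squares RNA2 libraries; in each row the circles stand apart from the other symbols, by a log2 distance of 4.61 for edin and 0.88 for FBXO11.

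Taken as a list, 26 of 36 tested antimicrobial and immune-induced peptides rose (72.2%, against 4.68% of all tested genes) and 3 fell (8.33%, against 5.27%). The list's median log2 fold change was 1.69, beside 0.01 for all tested genes. Its median per library, relative to the control mean, was 1.75, 1.90 and 1.56 in RNA1 and 1.58 and 1.73 in RNA2, so the 5 libraries were close to each other on this measure. The 3 members that fell were Drsl4 (log2 -1.13, FDR 0.0121; 0.0529 and 0.0551 without control replicates 1 and 2), Drsl5 and Listericin. Drsl5, a relative of drosomycin, went from 60.2, 90.8 and 87.5 CPM in control to 42.7, 33 and 36.3 CPM in RNA1 and 46.7 and 29.3 CPM in RNA2 (log2 -1.08 ± 0.18, FDR 0.00689). Listericin went from 154 to 184 CPM in control to 94.5 to 131 CPM in knockdown (-0.68 ± 0.11, FDR 0.00418). Leaving out each library in turn left 18 to 27 peptides called higher.

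The receptors and regulators of these pathways moved less than the peptides. By the overlap rule alone, 10 of 38 tested Toll and Imd genes were higher (26.3%, against 11.1% of all genes). There were 4 lower (10.5%, against 10.6%). Of the 38, 9 rose (23.7%, against 4.68% of all genes), none fell (against 5.27%) and the median was 0.08. The 3 with the widest gaps were PGRP-SC2 and PGRP-SB1, amidases that cleave peptidoglycan, and pirk, an inhibitor of Imd signalling. PGRP-SB1 read 32.0, 47.1 and 33.3 CPM in control, 136, 238 and 139 CPM in RNA1 and 239 and 139 CPM in RNA2 (log2 2.25 ± 0.29, FDR 0.00356). PGRP-SC2 went from 0.157 to 0.513 CPM to 3.79 to 19.6 CPM (5.12 ± 0.71, FDR 0.00525; 0.0744 by limma-voom). In pirk, 4 knockdown libraries read 46.9 to 54.0 CPM and RNA1 replicate 2 only 27.2 CPM, still above the control range of 11.8 to 18.7 CPM (1.60 ± 0.25, FDR 0.00634). Without control replicate 1 or 3 the count of 9 fell to 4. The 12 tested Turandot and JAK-STAT genes, a stress and cytokine response, gave no call; 4 had an unadjusted p under 0.05, and DESeq2 and limma-voom called at most 1.

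Some markers of hemocytes and fat body, the tissues that make immune peptides, rose as well. Of 15 tested hemocyte markers, 6 rose (40.0%, against 4.68% of all tested genes) and none fell. In 6 of the 15 the log2 fold change was negative, and the median was 0.09. Their summed level overlapped between the groups (1214 to 1277 CPM in control, 1117 to 1519 CPM in knockdown), and RNA1 replicate 1 was below every control. Sr-CI, a scavenger receptor of hemocytes, read 8.79, 9.64 and 7.68 CPM in control, 19.2, 28.1 and 19.0 CPM in RNA1 and 24.8 and 17.7 CPM in RNA2 (log2 1.32 ± 0.17, FDR 0.00142). The phagocytic receptor eater rose from 1.78 to 2.37 CPM to 3.62 to 6.76 CPM (1.32 ± 0.22, FDR 0.0049). A further receptor, NimC2, rose by 1.33, a call lost without control replicate 1 or 3 (FDR 0.0553 and 0.0579), and it overlaps rk on the other strand. Of 5 defining hemocyte markers, 4 passed the filter (Hml, NimC1, eater and Sr-CI) and He did not. Each of the 4 was higher in all 5 knockdown libraries, so their sum could not overlap and adds nothing to them. It was 52.5 to 68.1 CPM in control and 101 to 178 CPM in knockdown. The count of 6 was 2 without control replicate 3. The part of hemocyte number in the rise of the peptides was not tested.

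Of 22 tested fat body markers, 6 rose and 1 fell (27.3% and 4.55%, against 4.68% and 5.27% of all genes), with a median of 0.45. The larval storage protein gene Lsp1alpha, at a low level, went from 1.30, 1.03 and 0.731 CPM to 3.19, 3.48 and 2.76 CPM in RNA1 and 2.79 and 4.08 CPM in RNA2 (log2 1.67 ± 0.23, FDR 0.00198). Mtp, which loads lipid onto lipoproteins, rose from 35.2 to 37.0 CPM to 45.4 to 56.1 CPM (0.47 ± 0.08, FDR 0.00689). The members with the largest rise were highest in RNA2 replicate 1: Lsp2 read 722 CPM there and 142 to 285 CPM in the other knockdown libraries, against 31.5 to 65.5 CPM in control, and Gnmt 224 CPM against 59.7 to 105 CPM and 17.7 to 22.7 CPM. Both calls (Lsp2 log2 2.85, FDR 0.0367; Gnmt 2.49, FDR 0.0169) were lost when any 1 control was left out (FDR 0.0736 to 0.146 and 0.061 to 0.0819), and the call of Lsp2 also without RNA1 replicate 2 or 3 (0.0624 and 0.0552). Lsp2 has an antisense RNA and Gnmt the gene CG43630 on the other strand. The member that fell was takeout (to), a secreted carrier protein also under clock control, from 44.9, 51.0 and 47.5 CPM to 18.6, 23.1 and 18.2 CPM in RNA1 and 23.7 and 25 CPM in RNA2 (-1.14 ± 0.11, FDR 0.000361). Without control replicate 3, 2 markers were called higher in place of 6. The summed level of all 22 overlapped between the groups (3795 to 4348 CPM in control, 3722 to 5770 CPM in knockdown). The sum over 9 defining fat body markers also overlapped between the groups (2425 to 2919 CPM in control, 2579 to 4334 CPM in knockdown).

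Among 45 tested genes of lipid and sugar metabolism, 2 rose and 1 fell (4.44% and 2.22%), no more than among all genes. The higher count was 1 without control replicate 1 or 2, RNA1 replicate 2 or 3, or RNA2 replicate 1, and 4 without RNA1 replicate 1 or RNA2 replicate 2. The lower call was that of Gpdh1, a glycerol-3-phosphate dehydrogenase (log2 -0.30, FDR 0.0472), and it was lost whichever library was left out (FDR 0.0521 to 0.219). Ilp6, the insulin-like peptide of the fat body (X:2331493-2334658), was the clearest. Its libraries read 22.5, 26.2 and 23.3 CPM in control, 53.2, 58.6 and 56.5 CPM in RNA1 and 49.2 and 50.8 CPM in RNA2. The rise of log2 1.16 ± 0.08 (FDR 5.3e-05) held whichever library was left out. Of 24 tested genes of juvenile hormone and ecdysone action, 2 rose and 3 fell (8.33% and 12.5%, against 4.68% and 5.27% of all genes). Kr-h1, a transcription factor induced by juvenile hormone, went from 23.0, 21.0 and 23.7 CPM to 39.4, 39.3 and 34.7 CPM in RNA1 and 34.7 and 38.1 CPM in RNA2 (0.72 ± 0.08, FDR 0.000554); it overlaps CG45075 on its own strand. MsrA, a methionine sulfoxide reductase induced by ecdysone, fell by 0.61 ± 0.09 (FDR 0.00356). Without control replicate 2 these hormone counts were 1 in each direction.

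On the lower side the 12 widest gaps belonged to genes of mixed kinds, few of them named. CG11349 (3L:4473068-4475095) came near to vanishing: 179, 170 and 214 counts in control against 0, 2 and 3 in RNA1 and 1 and 0 in RNA2. A count of 0 still allows up to 3 counts, which is 0.0798 CPM in RNA1 replicate 1 and 0.0886 CPM in RNA2 replicate 2. Pooled over libraries and per total count, control exceeded knockdown 137-fold, with an exact 95% interval for counting error of 62.5 to 375. The next was Hsp70Ba, a copy of the stress-induced Hsp70 chaperone, at 162, 687 and 426 counts in control and 4 to 12 in knockdown (log2 -5.54 ± 0.48, FDR 0.000461). Its near-identical copy Hsp70Bb went the other way, from 28.7, 119 and 96.1 CPM to 694, 487 and 390 CPM in RNA1 and 283 and 549 CPM in RNA2 (2.56 ± 0.54, FDR 0.0293). Reads can be split between these copies, so which copy they came from is uncertain, and the rise of Hsp70Bb was lost without control replicate 2 or 3, RNA1 replicate 2 or RNA2 replicate 2 (FDR 0.0526 to 0.0831) and with no filter on low counts (0.0527).

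Several genes on the lower side fell far with little scatter. CG31300 (3R:25283620-25285224) had the lowest FDR of all genes that fell: 22.5, 23.4 and 26.1 CPM in control, 5.82, 5.62 and 4.85 CPM in RNA1 and 4.72 and 5.59 CPM in RNA2 (log2 -2.17 ± 0.10, FDR 1.4e-06). CG10553, on the same arm (3R:25316461-25318111), went from 36.6, 43.3 and 42.5 CPM to 7.79, 8.68 and 8.64 CPM and to 5.34 and 8.81 CPM (-2.38 ± 0.15, FDR 2.2e-05). All 5 knockdown libraries of both genes lay within a narrow band. CG34327 on the X fell from 61.0 to 67.7 CPM to 7.98 to 13.4 CPM (-2.61 ± 0.15, FDR 2.1e-05) and CG9377 from 14.3 to 17.3 CPM to 0.857 to 2.21 CPM (-3.41 ± 0.25, FDR 0.000101). Nepl4, a neprilysin-like peptidase gene, fell by 2.83 on the log2 scale (FDR 0.000159), as did Ugt37A1, a glycosyltransferase gene, by 3.16 (FDR 0.00478), the latter at 0 to 9 counts per knockdown library.

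Cp38 encodes a chorion protein of the eggshell, which a head does not make. It was at 4.58, 8.47 and 8.10 CPM in control, 0.319, 0.724 and 0.455 CPM in RNA1 and 0.168 and 1.33 CPM in RNA2 (log2 -3.56 ± 0.50, FDR 0.00398). Cp38 was the 1 of 5 matched ovary markers that passed the filter, and of 7 tested ovary and eggshell genes it alone fell. Genes tied to sex gave no shared direction: the dosage compensation RNAs lncRNA:roX1 (log2 0.11, FDR 0.523) and lncRNA:roX2 (0.20, FDR 0.238) and the yolk proteins Yp1 (0.57, FDR 0.5), Yp2 (-0.72, FDR 0.177) and Yp3 (0.02, FDR 0.947) were not called. Of 15 tested sex-biased and dosage genes 2 rose and 2 fell (13.3% each, against 4.68% and 5.27% of all genes). These counts were 0 and 1 without control replicate 2 or 3. Among 7 tested genes of testis and accessory gland 1 rose, Mst85C (0.36, FDR 0.0383), a call lost on leaving out any 1 library other than RNA2 replicate 1 (FDR 0.0591 to 0.172; Nmdmc on the other strand). None of the 4 matched defining markers of those glands passed the filter. Whether ovary tissue in the control samples has a part in any other difference was not tested.

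Genes of neurons moved little, and more of those that moved fell. In 27 tested genes for transmitter synthesis and transport, 5 fell and 1 rose (18.5% and 3.70%, against 5.27% and 4.68% of all genes). Of the 27, 24 had a negative log2 fold change (5179 of 10865 among all genes) and the median was -0.21. ChAT, the enzyme that makes acetylcholine (3R:18705501-18732344), read 193, 188 and 176 CPM in control, 135, 145 and 138 CPM in RNA1 and 140 and 147 CPM in RNA2 (-0.40 ± 0.06, FDR 0.00258). The libraries did not overlap and the call held whichever library was left out, but VAChT lies within the gene on the same strand. Vmat, the vesicular monoamine transporter, went from 607 to 677 CPM to 487 to 553 CPM (-0.31 ± 0.07, FDR 0.0188), a call lost without control replicate 1 or 2 (FDR 0.0954 and 0.0796); it overlaps CG13330 on the other strand. Pu, the GTP cyclohydrolase that feeds both biopterin and eye pigments, read 986 to 1121 CPM in control and 569 to 740 CPM in 4 knockdown libraries but 345 CPM in RNA2 replicate 1 (-0.84 ± 0.21, FDR 0.0403). Its call was lost without any 1 control, RNA1 replicate 1 or 2, or RNA2 replicate 2 (FDR 0.0542 to 0.14), and also when scaled to library totals (0.0529) or with no filter (0.0758). The count of 5 lower calls was 1 without control replicate 1 or 2. The member that rose was Hn, phenylalanine hydroxylase (0.36, FDR 0.0455), a call lost without any 1 control, RNA1 replicate 2 or 3, or RNA2 replicate 1 (FDR 0.0627 to 0.181).

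Receptors gave 1 clear member. Of 50 tested receptors for neuropeptides and amines 3 fell and none rose (6%, near the 5.27% of all genes). The lower count was 1 without control replicate 1. By the overlap rule alone 11 of the 50 were lower (22.0%, against 10.6% of all genes) and 0 higher. SPR, the receptor of sex peptide and of myoinhibitory peptides (X:5446656-5494012), read 82.8, 75.9 and 74.4 CPM in control, 35.3, 41.6 and 35.4 CPM in RNA1 and 36.1 and 42.6 CPM in RNA2. It fell to 49.2% of control, by 1.02 on the log2 scale (SE 0.08, FDR 0.000127), and overlaps frma on the other strand. 5-HT2A, a serotonin receptor, went from 120 to 131 CPM to 92.9 to 106 CPM (-0.34 ± 0.06, FDR 0.00936; FDR 0.0506 without control replicate 1).

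Of 39 tested neuropeptide genes 1 rose and 3 fell (2.56% and 7.69%, against 4.68% and 5.27% of all genes). The lower count was 1 without control replicate 2 and 5 without RNA2 replicate 1. The member that rose was CCHa2, a nutrient-responsive peptide hormone, from 51.4, 58.2 and 60.0 CPM to 75.5, 92.2 and 82.2 CPM in RNA1 and 88.7 and 94.8 CPM in RNA2 (log2 0.62 ± 0.09, FDR 0.00225). The peptide precursor spab fell from 70.2 to 72.7 CPM to 56.1 to 60.5 CPM, a small change in a gene with little scatter (-0.30 ± 0.05, FDR 0.00776). Among 57 tested ion channels 2 rose and 3 fell (3.51% and 5.26%), no more than among all genes (4.68% and 5.27%). Without control replicate 1 or 2 the higher count was 0. Ork1, a leak potassium channel that lowers excitability, went from 29.7, 31.8 and 33 CPM to 16.9, 17.0 and 21.7 CPM in RNA1 and 20.2 and 19.7 CPM in RNA2 (-0.72 ± 0.09, FDR 0.00136). Irk3, an inward rectifier, fell by 0.56 ± 0.10 (FDR 0.00612) and overlaps Grip71 on the other strand. The potassium channel sand fell by 0.67 (FDR 0.00965; 0.0541 without control replicate 3; uno on the other strand). The nicotinic subunit nAChRbeta3 rose by 1.05 ± 0.20 (FDR 0.0126; 0.0631 and 0.071 without control replicates 1 and 2), with Ets21C on the other strand.

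Synaptic vesicle and active zone genes gave no call among 28 tested, nor did DESeq2 or limma-voom make one. Of the 28, 4 had an unadjusted edgeR p under 0.05 (2887 of 10865 among all genes). The log2 fold change was negative in 24 (5179 of 10865 among all genes), with a median of -0.09. The list's median per library, relative to the control mean, overlapped between the groups (-0.04 to 0.069 in control, -0.211 to -0.025 in knockdown). Without regard to a call, 4 of the 28 met the overlap rule as lower (14.3%, against 10.6% of all genes) and 0 as higher. By the overlap rule alone, 13 of 55 tested genes of axon guidance and adhesion were lower (23.6%, against 10.6% of all genes) and 1 was higher (1.82%, against 11.1%). Of the 55, 3 fell (5.45%, near the 5.27% of all genes) and none rose. Among them caps, a leucine-rich repeat adhesion protein, went from 112 to 118 CPM to 92.4 to 98.9 CPM (log2 -0.27 ± 0.05, FDR 0.0108; 0.0588 without control replicate 2). That list held 45 negative values of 55 (5179 of 10865 among all genes), and without control replicate 2 it had 0 calls. Its summed level overlapped between the groups (11590 to 12300 CPM in control, 10570 to 11890 CPM in knockdown). Of 15 activity-regulated genes 1 fell, the peptidase gene Nep1 (-0.52 ± 0.09, FDR 0.00489; Mipp2 lies on the other strand). Of 13 Notch pathway genes 1 fell: Su(H), the transcription factor of the pathway, read 23.9, 24.7 and 22.8 CPM in control, 15.1, 14.6 and 14.9 CPM in RNA1 and 16.0 and 18.6 CPM in RNA2 (-0.59 ± 0.09, FDR 0.0031). It held whichever library was left out.

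Glial markers had the largest share of lower calls among the lists from the nervous system. Of 22 tested, 6 fell (27.3%, against 5.27% of all genes), none rose and the median was -0.19. The exchanger zyd, which acts in cortex glia, went from 97.6, 92.6 and 92.1 CPM to 56.6, 70.4 and 67.2 CPM in RNA1 and 71.1 and 69.9 CPM in RNA2 (log2 -0.49 ± 0.08, FDR 0.00416). RNA1 replicate 1 was the lowest. The glial adhesion protein wrapper went from 58.5, 52.8 and 62.5 CPM to 32.3, 40.4 and 40.0 CPM and to 41.6 and 38.7 CPM (-0.58 ± 0.09, FDR 0.00356). Summed over 5 defining markers (repo, wrapper, Gli, moody and Eaat1), glia stood at 712 to 791 CPM in control and 556 to 702 CPM in knockdown, just without overlap. Without control replicate 2 the count of 6 fell to 2.

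**Figure D3:**
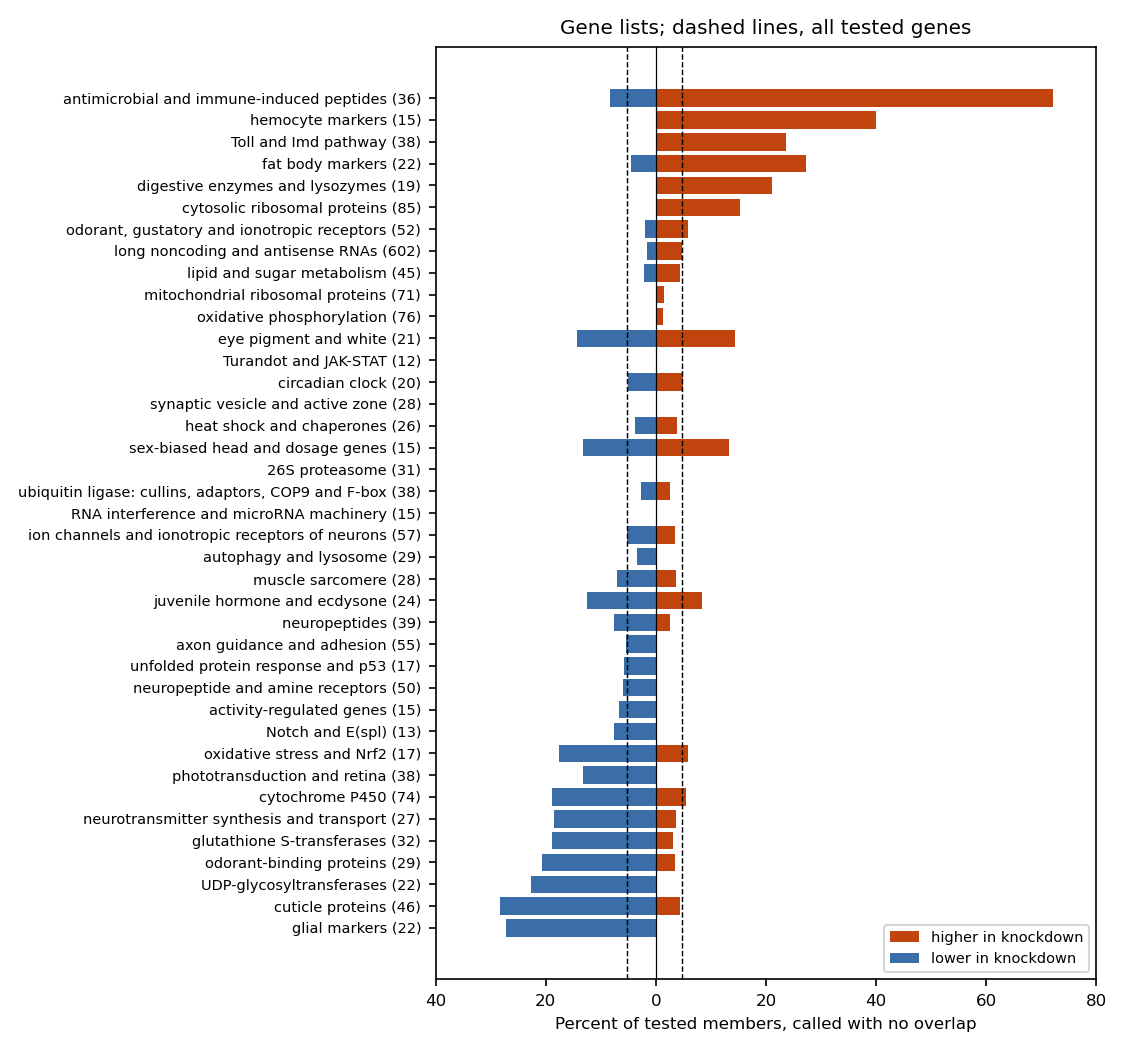
Share of each list's tested members (number in brackets; lists with at least 10) that rose (bars to the right) or fell (to the left) with no overlap and an edgeR FDR under 0.05; the dashed lines are the shares among all tested genes, 4.68% and 5.27%. Immune peptides reach 72.2% higher, while cuticle proteins (28.3%) and glial markers (27.3%) have the longest bars on the lower side.

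Of 38 tested genes of phototransduction and the retina 5 fell (13.2%, against 5.27% of all genes) and none rose, with a median of -0.06. Those that fell were ninaB, Rh7, Pdh, Cpn and santa-maria. By the overlap rule alone 9 of the 38 were lower (23.7%, against 10.6% of all genes) and 0 higher. The main rhodopsin ninaE was at log2 -0.01 (FDR 0.978) and the arrestin Arr2 at 0.02 (FDR 0.885). ninaB, which cleaves carotenoids to retinal, read 240, 235 and 245 CPM in control, 140, 149 and 168 CPM in RNA1 and 169 and 161 CPM in RNA2 (-0.61 ± 0.07, FDR 0.000966); it overlaps Adgf-D and f-cup on the other strand. Pdh, the photoreceptor dehydrogenase that recycles retinoid, had the most reads of all genes that fell: 3900, 3620 and 4291 CPM in control, 2565, 2812 and 2755 CPM in RNA1 and 2954 and 3160 CPM in RNA2 (-0.47 ± 0.09, FDR 0.00909; Tcs3 and an antisense RNA on the other strand). Rh7, a rhodopsin also found in clock neurons, went from 52.3 to 60.2 CPM to 34.0 to 42.2 CPM (-0.50 ± 0.08, FDR 0.00479). The 5 lower calls of the list were 3 without control replicate 1 and 9 without RNA2 replicate 1. Of 20 tested clock genes 1 rose (tim, log2 0.39, FDR 0.0431) and 1 fell (to, above); the call of tim was lost without any 1 control, RNA1 replicate 2 or 3, or RNA2 replicate 1 (FDR 0.0525 to 0.153), and in the fit on the means of the title groups (0.0578).

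The gene w (white) encodes a subunit of the transporter that brings pigment precursors into pigment cells, and it is also the usual visible marker of fly transgenes. Its libraries read 59.1, 63.6 and 66.1 CPM in control, 227, 262 and 245 CPM in RNA1 and 257 and 216 CPM in RNA2. The mean went from 62.9 ± 3.54 CPM (n = 3) to 242 ± 19.4 CPM (n = 5), 3.84-fold, or log2 1.94 ± 0.08 (FDR 1.4e-06). Among the 21 tested eye pigment genes 3 rose and 3 fell (14.3% each, against 4.68% and 5.27% of all genes), so w was not part of a common direction. The 3 lower calls were 1 without any 1 control, RNA1 replicate 2 or RNA2 replicate 2. mah (mahogany) rose from 0.444 to 0.586 CPM to 1.39 to 3.44 CPM (2.28 ± 0.31, FDR 0.00163). Rab32, which acts in pigment granules, fell from 785 to 817 CPM to 501 to 645 CPM (-0.52 ± 0.09, FDR 0.00561). How many copies of white each group carries is not given in the sources used here, and the part of such copies was not tested.

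Detoxification genes fell more often than they rose. Of 74 tested cytochrome P450 genes 14 fell and 4 rose (18.9% and 5.41%, against 5.27% and 4.68% of all genes), with a median of -0.09. Cyp6a2, an inducible P450 linked to insecticide resistance, read 50.9, 43.2 and 39.1 CPM in control, 13.9, 12.1 and 16.5 CPM in RNA1 and 20.2 and 16.1 CPM in RNA2 (log2 -1.49 ± 0.15, FDR 0.000516). Cyp4ac2 went from 8.08 to 9.30 CPM to 4.95 to 5.11 CPM in 4 knockdown libraries and 3.78 CPM in RNA1 replicate 1 (-0.87 ± 0.13, FDR 0.00242), while Cyp4d2 rose from 69.7 to 80.7 CPM to 97.1 to 105 CPM (0.43 ± 0.06, FDR 0.00297; asRNA:CR44690 on the other strand). Of 32 tested glutathione S-transferases 6 fell and 1 rose (18.8% and 3.12%, against 5.27% and 4.68% of all genes). GstD2 read 4.79, 5.23 and 5.98 CPM in control, 1.78, 1.59 and 2.21 CPM in RNA1 and 1.59 and 1.48 CPM in RNA2 (-1.62 ± 0.17, FDR 0.000461). GstE3 fell by 0.80 (SE 0.10, FDR 0.00114), and GstZ1, an enzyme of tyrosine breakdown, rose by 0.90 ± 0.14 (FDR 0.00356). Of 22 tested UDP-glycosyltransferases 5 fell (22.7%, against 5.27% of all genes) and none rose, with a median of -0.35. Without control replicate 2 these lower counts of 14, 6 and 5 became 7, 2 and 2, and the 4 higher P450 calls were 1 without any 1 control or RNA1 replicate 2 or 3.

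Cuticle proteins had the lowest median of the lists with at least 10 tested members, -0.69. Of 46 tested, 13 fell and 2 rose (28.3% and 4.35%, against 5.27% and 4.68% of all genes). Cpr49Ae read 146, 167 and 187 CPM in control, 54.5, 76.0 and 74.6 CPM in RNA1 and 56.5 and 82.4 CPM in RNA2 (log2 -1.27 ± 0.15, FDR 0.0012). TwdlT, of the Tweedle family of cuticle proteins, went from 32.3 to 42.0 CPM to 13.2 to 18.4 CPM (-1.21 ± 0.12, FDR 0.000461), and Ccp84Ag from 2.76 to 4.13 CPM to 0.503 to 1.42 CPM (-1.84 ± 0.28, FDR 0.00309). Cpr49Ag rose, from 85.2 to 106 CPM to 132 to 160 CPM (0.56 ± 0.09, FDR 0.00356). The range of lower calls over libraries left out was 5 (without control replicate 2) to 14. Of 29 tested odorant-binding proteins 6 fell and 1 rose (20.7% and 3.45%, against 5.27% and 4.68% of all genes). There were 3 lower calls without control replicate 2 or 3. The member that rose, Obp56g (log2 0.36, FDR 0.0453), lost its call without any 1 library other than control replicate 3 (FDR 0.0538 to 0.189). Obp44a read 586, 636 and 622 CPM in control, 299, 313 and 360 CPM in RNA1 and 360 and 357 CPM in RNA2 (-0.86 ± 0.08, FDR 0.000289; Pabp2 on the other strand). Obp56d fell by 0.77 (SE 0.07, FDR 0.000319), and Obp99d by 1.45 (SE 0.20, FDR 0.0019).

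Chemosensory receptors were few above the filter, 52 of 186 matched. Of these, 3 rose and 1 fell (5.77% and 1.92%, against 4.68% and 5.27% of all genes). By the overlap rule alone 10 were higher (19.2%, against 11.1% of all genes) and 1 was lower (1.92%, against 10.6%). Ir75a and Ir75b, adjacent ionotropic receptors of olfactory neurons (3L:17815570-17817921 and 3L:17818073-17820193), rose together. Ir75a read 3.51, 3.78 and 3.97 CPM in control, 14.9, 20.7 and 14.4 CPM in RNA1 and 29.9 and 20.8 CPM in RNA2 (log2 2.42 ± 0.26, FDR 0.000966). Ir75b read 3.02, 2.73 and 2.48 CPM in control, 9.81, 13.3 and 8.76 CPM in RNA1 and 16.9 and 12 CPM in RNA2 (2.14 ± 0.22, FDR 0.000461). The order of the 5 knockdown libraries was nearly the same for both, with RNA2 replicate 1 highest and RNA1 replicate 3 lowest; the genes are relatives, and reads of shared stretches could count for either. Or45b fell from 2.58 to 3.03 CPM to 0.671 to 1.11 CPM (-1.67 ± 0.21, FDR 0.00114), with asRNA:CR45281 on the other strand. The gustatory receptor gene Gr47b had 2, 0 and 6 counts in control and 8 to 18 in each knockdown library, 6.34-fold more per total count (95% interval for counting error 3.05 to 15.2; FDR 0.0384, lost without control replicate 1 or 2, RNA1 replicate 2 or 3, or RNA2 replicate 2 at FDR 0.0595 to 0.149).

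**Figure D4:**
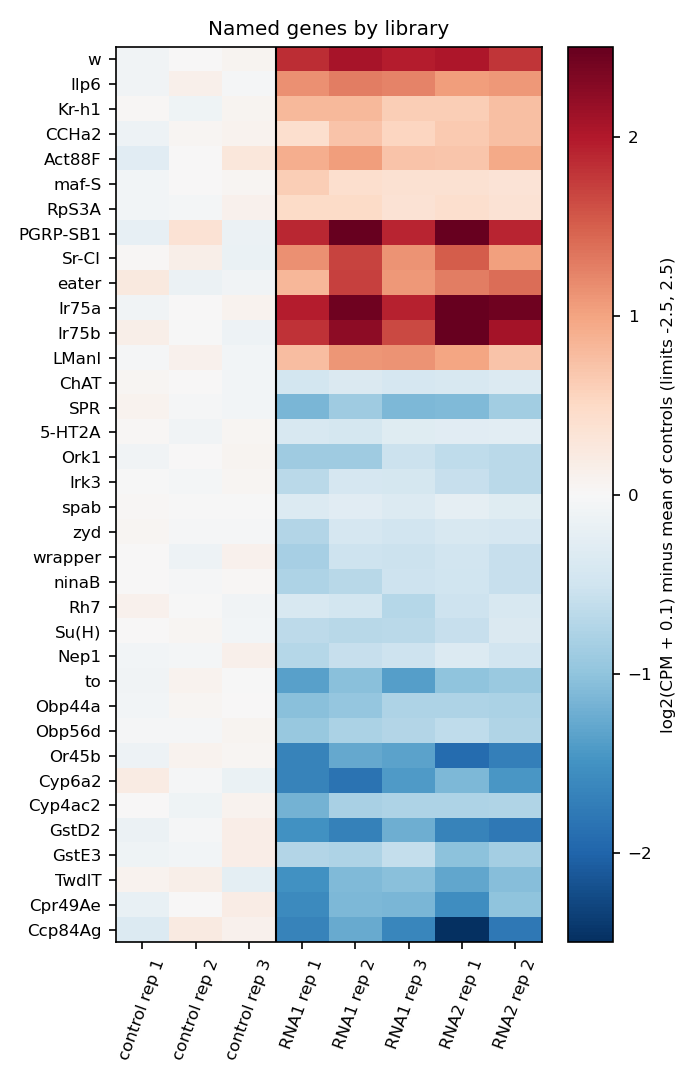
Log2(CPM + 0.1) of 36 named genes (rows) in each library (columns) minus the mean of the 3 controls, with colours limited at -2.5 and 2.5; the vertical line divides control from knockdown. From w to LManI each knockdown cell is on the higher side, and from ChAT to Ccp84Ag each is on the lower side.

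Genes of the proteasome are of interest because the target of SCF ligases is degraded there. Of 31 tested subunit genes 0 were called, whether with edgeR, with DESeq2 or with limma-voom, and 0 had an unadjusted edgeR p under 0.05. Still, all 31 had a negative log2 fold change, with a median of -0.34. The 31 genes moved as a block from library to library: the median relative to the control mean was -0.07, 0.27 and -0.20 in control replicates 1 to 3, -0.07, -0.53 and -0.05 in RNA1 and -1.01 and -0.18 in RNA2. Their summed level was 4868 to 6806 CPM in control and 2691 to 5476 CPM in knockdown, with overlap, and the lowest value was RNA2 replicate 1. Rpn3 was the 1 subunit whose libraries did not overlap: 214, 305 and 207 CPM in control, 186, 116 and 177 CPM in RNA1 and 78.1 and 188 CPM in RNA2 (log2 -0.70, FDR 0.194). Control replicates 2 and 3 lay further apart from each other than 3 of the 5 knockdown medians lay from the control mean.

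**Figure D5:**
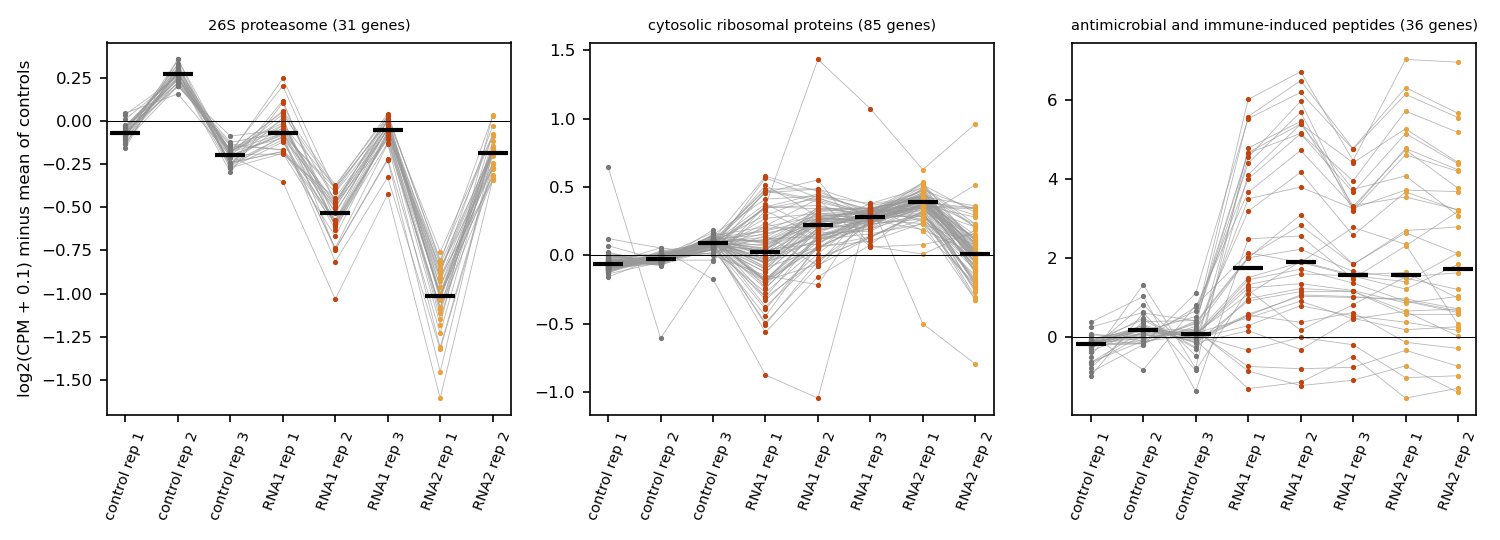
Log2(CPM + 0.1) minus the control mean (y axis) in each library (x axis) for 31 proteasome, 85 ribosomal protein and 36 immune peptide genes; thin lines join the values of 1 gene and black bars are medians. Proteasome medians range from -0.20 to 0.27 within control and reach -1.01 in RNA2 replicate 1, ribosomal medians reach 0.39 there, and those of immune peptides lie between 1.56 and 1.90 in all 5 knockdown libraries.

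Elsewhere in the ubiquitin system changes were rare. Of 38 tested ligase subunits and adaptors FBXO11 fell, and Nedd8, the modifier that activates cullins, rose from 27.6 to 30.7 CPM to 32.2 to 42.8 CPM (log2 0.35, FDR 0.0382), a call lost without any 1 control, RNA1 replicate 2 or 3, or RNA2 replicate 2 (FDR 0.0525 to 0.158). Of 29 autophagy and lysosome genes 1 fell: Atg9, the membrane protein of the autophagosome seed (-0.32, FDR 0.0342; lost without any 1 control or RNA1 replicate 1 or 2 at FDR 0.0593 to 0.162, and with library totals at 0.0574). In 26 tested heat shock and chaperone genes the calls were those of Hsp70Ba and Hsp70Bb and, with overlapping libraries, Hsp67Bc (0.45, FDR 0.0473). The list's 2 higher calls were 0 without control replicate 2, RNA1 replicate 2 or RNA2 replicate 2, and 4 without RNA2 replicate 1. Of 17 genes of oxidative stress 1 rose and 3 fell (5.88% and 17.6%, against 4.68% and 5.27% of all genes), with 1 lower call without control replicate 2. maf-S, the small Maf partner of the Nrf2 factor, read 47.3, 50.5 and 51.9 CPM in control, 76.3, 66.7 and 64.7 CPM in RNA1 and 65.1 and 63.2 CPM in RNA2 (0.43 ± 0.08, FDR 0.00641). Keap1, the inhibitor of that factor, fell by 0.48 (FDR 0.019; 0.0662 and 0.103 without control replicates 1 and 2). Of 17 genes of the unfolded protein response and p53, hid, an inducer of cell death, fell (-0.67, FDR 0.037), a call lost without control replicate 1 or 2, any 1 RNA1 library, or RNA2 replicate 2 (FDR 0.0514 to 0.143). The 15 tested genes of RNA interference gave no call; 3 had an unadjusted p under 0.05, and DESeq2 and limma-voom called at most 1.

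Ribosomal protein genes made up much of the abundant part of the genes that rose. Of 85 tested, 13 rose with no overlap (15.3%, against 4.68% of all genes) and none fell. The log2 fold change was positive in 79 (5682 of 10865 among all genes), with a median of 0.19. RpS3A, of the small subunit, read 1075, 1087 and 1201 CPM in control, 1568, 1568 and 1441 CPM in RNA1 and 1508 and 1438 CPM in RNA2 (log2 0.42 ± 0.07, FDR 0.00533), and RpS20 went from 281 to 288 CPM to 350 to 397 CPM (0.40 ± 0.07, FDR 0.00511; CG17272 on the other strand). Both calls held whichever library was left out. RpL10 (0.36, FDR 0.00675) lost its call without control replicate 2 (FDR 0.0541), and RpL15, RpL21 and RpS29 (0.38, 0.34 and 0.33; a snoRNA lies within RpL15 and an antisense RNA over RpS29) lost theirs without control replicate 1 or 2 (FDR 0.0537 to 0.0799). The list's count of 14 calls fell to 2 without control replicate 2. The list's median per library was 0.03, 0.22 and 0.28 in RNA1 and 0.39 and 0.01 in RNA2, so RNA1 replicate 1 and RNA2 replicate 2 were near control. In the other translation and energy lists, 1 of 71 mitochondrial ribosomal genes rose (mRpS7, 0.29, FDR 0.0261; lost without any 1 control or RNA1 replicate 2 at FDR 0.0624 to 0.116), as did 1 of 76 oxidative phosphorylation genes (ATPsynepsilonL, 1.51, FDR 0.0254; lost without any 1 control or RNA1 replicate 2 or 3 at FDR 0.0517 to 0.113).

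Of 19 tested digestive enzymes and lysozymes 4 rose (21.1%, against 4.68% of all genes), and 2 were called higher without any 1 control. LManI, a lysosomal alpha-mannosidase, read 10.2, 11.2 and 9.85 CPM in control, 17.7, 22.3 and 22.7 CPM in RNA1 and 20.6 and 17.1 CPM in RNA2 (log2 0.95 ± 0.11, FDR 0.000966). The amylase copies Amy-p (2.5, FDR 0.023) and Amy-d (2.04, FDR 0.0158), between which reads can be split, lost their calls when any 1 control was left out (FDR 0.0604 to 0.0948 and 0.0544 to 0.0787). Of 5 gut markers 4 were tested, of which 2 met the overlap rule as higher and 1, Amy-p, was called. Their sum was 138 to 157 CPM in control and 172 to 335 CPM in knockdown, without overlap. The markers' median per knockdown library was uneven, from 0.31 in RNA2 replicate 2 to 4.62 in RNA1 replicate 3 relative to the control mean. Their part in other differences was not tested. Of 28 tested sarcomere genes 1 rose and 2 fell (3.57% and 7.14%, against 4.68% and 5.27% of all genes). The lower count was 1 without control replicate 3. Act88F, the flight muscle actin, went from 10.2, 12.5 and 15.2 CPM to 23.5, 25.9 and 20.5 CPM in RNA1 and 20.3 and 24.0 CPM in RNA2 (0.86 ± 0.13, FDR 0.00357). Zasp52, a protein of the Z disc, went from 456 to 520 CPM to 337 to 390 CPM (-0.39 ± 0.07, FDR 0.00923).

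The title groups RNA2 and RNA1, called lines here by title only, were compared with 2 and 3 libraries a side. The 2 RNA2 libraries carry different genotype entries, KD2 and KD3, so they may not be replicates of 1 line. Of 10865 genes 23 (0.212%) differed between RNA2 and RNA1 by edgeR, 13 higher and 10 lower in RNA2, and 838 had an unadjusted p under 0.05; DESeq2 called 140, and edgeR with no filter on low counts 42. Among the 1082 genes called with no overlap 1 was in that set, Ipk1, the inositol pentakisphosphate 2-kinase (2R:20870791-20879145). It read 16.1, 16.2 and 16.5 CPM in control, 29.3, 29.8 and 30.8 CPM in RNA1 and 57.1 and 53 CPM in RNA2. Each group was tight and the 3 did not overlap, so that the pooled value (log2 1.30 ± 0.27, FDR 0.0219) averages a smaller and a larger rise; the difference between lines was 0.88 (FDR 0.00121). Its pooled call was lost without any 1 control (FDR 0.0736 to 0.0937). In CG14715 the lines stood the other way round, with 15.5 to 16.8 CPM in RNA1, 9.44 and 8.01 CPM in RNA2 and 7.40 to 7.65 CPM in control; edgeR did not call it in the pooled comparison (0.80, FDR 0.0799), while DESeq2 (adjusted p 0.00973) and the fit on title-group means (0.00269) did, as did edgeR without RNA2 replicate 1 or 2 (0.044 and 0.0162). CG4757 read 15 to 19.0 CPM in control, 23.5 to 34.4 CPM in RNA1 and 111 and 95.3 CPM in RNA2 (1.79, FDR 0.124). With 3 and 2 libraries a side, a gene that is not called between lines is not shown to respond alike in both.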

How the data were processed

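RNA was sequenced from heads of adult flies in 8 libraries, 3 control, 3 RNA1 and 2 RNA2. Per the labels' protocols, RNA came from a lipid tissue kit with Trizol and libraries from a stranded mRNA kit. The submitters' processing notes name bcl2fastq 2.17, cutadapt 1.18, FastQC 0.11.8, STAR 2.6.1, SAMtools 1.8, DESeq2 1.24.0 and the build BDGP6, with no roles; neither they nor the labels say how reads were counted, whether strand was used, or from which annotation release. The authors deposited whole-number read counts per gene for 17676 gene IDs, of which 2507 had no count; 17549 IDs were matched to a BDGP6 annotation whose release may differ from theirs, and coordinates come from it.

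Total counts were 32434805 to 41589222 per library; intervals and floors of 3 counts cover counting error only. Groups follow the sample titles. Genes were kept by edgeR's filterByExpr (minimum count 10, minimum total 15, 10865 genes), scaled by TMM and fitted with edgeR 4.0.16 (R 4.3.3; robust quasi-likelihood F-test, knockdown against control, Benjamini-Hochberg FDR over all tested genes). The SE is the size of the log2 fold change over the square root of F. Libraries overlap or not by their TMM-scaled CPM. RNA2 was set against RNA1 in a fit of all 3 groups. The code was tested on simulated counts before use.

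Genes were named by a fixed rule: FBXO11, the 12 widest gaps and the 6 with the most reads per direction, up to 3 per direction in each of 50 lists, and the genes at the edges of the overlap rule and of the comparison of lines. TwdlT, Rpn3, Hsp67Bc, ninaE, Arr2, the roX RNAs, the yolk protein genes and the members of neighbouring runs were chosen after their values were seen. The members and lists were chosen with earlier results of these data known. List counts are given beside those of all genes, with no test of a list, and 28 list entries had no match. Alternatives were RLE factors, library totals, other filters, DESeq2 1.42.0, limma-voom (limma 3.58.1), means per title group, a replicate block and leaving out libraries. A planned search of promoter letters was not run, and no sequence is printed.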

Additional observations from a re-analysis of the deposited data

Results flagged for a closer look

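Among 163 named genes, the highest or lowest of the 5 knockdown libraries stood apart from the other 4 in 14, where the gap to the nearest library exceeded 0.71 of the range. Chance flags about 1 in 20 groups. RNA1 replicate 1 was the outlying library for zyd (56.6 CPM), maf-S (76.3 CPM), Cyp4ac2 (3.78 CPM) and Gr47b (0.213 CPM). RNA1 replicate 2 stood apart for RpL10 (1049 CPM) and pirk (27.2 CPM). RNA1 replicate 3 did so for Cpr49Ag (160 CPM), for bowl, an odd-skipped family transcription factor (32.9 CPM), and for betaTry, a trypsin of the gut (13 CPM, with 0 in every control and at most 0.475 CPM in the other knockdown libraries). RNA2 replicate 1 stood apart for Listericin (131 CPM), Gnmt (224 CPM), Lsp2 (722 CPM) and hid (11.2 CPM), and RNA2 replicate 2 for Keap1 (27.3 CPM).

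Of the genes without overlap between knockdown and control, the 6 with the lowest FDR in edgeR's test of RNA2 against RNA1 are given here. The log2 difference was 0.88 for Ipk1 (FDR 0.00121), 1.8 for CG4757 (FDR 0.00194), 2.93 for Ag5r (FDR 0.0146), -0.88 for CG14715 (FDR 0.0146), 0.72 for dbr (FDR 0.0271) and 3.33 for CG43679 (FDR 0.0271). Of these, Ag5r read 0.391 to 0.862 CPM in control, 0.863 to 1.58 CPM in RNA1 and 10.6 and 6.35 CPM in RNA2.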

How the results depend on the processing

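The 516 higher and 582 lower calls by edgeR became 779 and 949 by DESeq2 and 311 and 441 with a replicate block; the other settings with all 8 libraries gave 445 to 674 and 485 to 638. Leaving out 1 library gave 168 (without control replicate 1) to 556 higher and 239 (without control replicate 2) to 665 lower calls (both highs without RNA2 replicate 1), and 1324 to 1731 higher and 1249 to 1749 lower genes without overlap, counts that grow as fewer libraries have to be apart. Without RNA1 replicate 1 and RNA2 replicate 1, chosen after seeing the data, the calls were 481 and 533 and the genes without overlap 1720 and 1676. The 23 calls of RNA2 against RNA1 became 14 with a stricter filter, 42 with no filter, 140 by DESeq2, 13 with the block and 10 to 28 on leaving out 1 library; the cause was not tested. Replicate numbers are shared between groups by number only. Correlations of deviations from the group mean ran from -0.246 to 0.183 between same-numbered libraries and from -0.183 to 0.246 between the others. With means of 2 or 3 libraries, these values can neither show nor exclude a pairing, and the block is not taken to stand for one. FBXO11 was called under every alternative run. Of 163 named genes, 71 lost their call under at least 1 alternative run (2751 values in all), 33 of them under the block. The other 92 lost no call, but some of these, such as MED6 and CG16953, had none to lose. Of the 163, 0 changed direction. Nearly all were named for groups that do not overlap, which all but fixes the direction, so this is no test of it. At these depths a count of 0 limits a level to 0.0732 to 0.0909 CPM.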

Other observations

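Some of the genes that rose or fell stood next to each other in the genome. Runs of at least 3 neighbouring tested genes, all called in the same direction with no overlap, numbered 19 (9 higher and 10 lower) and held 62 genes. The longest held 5 genes of the Bomanin family of Toll-induced peptides, BomBc2, BomS2, BomS3, BomT2 and BomS5, within 5419 bp of arm 2R (2R:18384824-18390242), with log2 fold changes of 0.85 to 1.76. BomT1, BomBc1 and BomS1 lie just before it (1.61 to 2.53). The 4 cecropins on 3R (3R:30210874-30216938) rose by 4.26 to 4.86, and Dro, AttA and AttB on 2R by 2.40 to 5.04; reads of such close copies can be split between them. The Ipk1 gene stands in a run with Dso1, Dso2 and Cib2 (2R:20868496-20882663; 0.85 to 1.30). On the lower side, CG10553 ran with CG10560 and CG10562 (-2.38 to -0.84), and Nepl4 with slam, DIP-epsilon and Nepl5 (-2.83 to -0.45). Whether such runs are more frequent than gene order alone gives was not tested.

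The X chromosome held fewer of the genes that rose. Of its 1772 tested genes 2.26% rose and 5.7% fell, while the arms 2L, 2R, 3L and 3R had 4.5% to 5.95% rising and 4.75% to 5.63% falling. Its median log2 fold change was -0.03, beside 0.01 to 0.03 on those arms. The difference in share was not tested. Of 602 tested long noncoding and antisense RNAs 29 rose (4.82%, near the 4.68% of all genes) and 10 fell (1.66%, against 5.27%). Their median was 0.17, beside 0.01 for all tested genes. Without control replicate 2 the calls were 9 higher and 5 lower. One that fell, asRNA:CR44107, read 12.1 to 14.5 CPM in control and 4.10 to 6.48 CPM in knockdown (log2 -1.23 ± 0.15, edgeR FDR 0.000966). The genes that fell had a longer exonic length (median 2313.5 bases) than those that rose (1587 bases), with 1997 bases over all tested genes.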
